A study of Mus musculus with 12 samples.

Results

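A set of 9 genes that mark T cells and natural killer (NK) cells was followed through 12 RNA-seq libraries of purified MC38 tumor cells. They were Cd3e, Cd3g, Trac, Cd8a, Icos, Pdcd1, Nkg7, Il2rb and Ms4a4b, 9 of the 33219 features of the count table, and each Ensembl ID matched its symbol in GENCODE M21. They were chosen by their measured expression in these data, as genes that were higher in WT tumors after anti-PD1. Their values in the comparisons that contain the WT samples are therefore given as a description, without a test. In A159V tumors the response to anti-PD1 had no part in that choice, and it was tested.

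MC38 is a mouse colon cancer line. WT cells, or cells carrying the A159V substitution of the small GTPase RAC1 as a homozygous CRISPR-Cas9 knock-in, were grown under the skin of C57BL/6 mice of either sex, bought as young adults. Mice received anti-PD1, an antibody against the PD1 receptor, or an IgG isotype control in a design of 4 groups with 3 mice each, named here by genotype and treatment (WT IgG and so on). The study states that its A159V data came from 1 clone unless specified otherwise, so genotype and clone cannot be told apart, and all hosts had their own wild-type lymphocytes. A magnetic kit depleted non-tumor cells from the dissociated tumors before RNA was extracted, so the counts describe what was left after that depletion. Total counts ranged from 14053582 to 21949942 per library. At these totals 3 counts, the smallest amount treated as detectable, corresponded to 0.137 to 0.213 CPM (counts scaled by library size), a limit that covers counting error only.

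T cells recognize antigen through a receptor whose alpha and beta chains, with constant parts encoded by Trac, Trbc1 and Trbc2, signal through the CD3 chains encoded by Cd3e, Cd3g and Cd3d. Cytotoxic T cells also carry the coreceptor CD8, and together with NK cells they kill targets with perforin and granzymes. PD1, the product of Pdcd1, restrains activated T cells, and antibodies that block it are used to release T cells inside tumors. In bulk RNA, fewer lymphocytes and less RNA per lymphocyte cannot be told apart.

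The 9 genes lie apart from one another in mm10, with the exception of the CD3 locus on chromosome 9. There Cd3g occupies 44969572 to 44980431 on the minus strand and Cd3e 44998740 to 45009627 on the same strand, with Cd3d between them, 1355 bases from Cd3g and 11401 bases from Cd3e. Cd8a lies on chromosome 6 from 71373427 to 71379173, Trac on chromosome 14 from 54220521 to 54224206, and Nkg7 on chromosome 7 from 43437073 to 43438249. Icos, from 60977927 to 61000320, and Pdcd1, from 94038305 to 94052553, share chromosome 1. Il2rb lies on chromosome 15 from 78479256 to 78495271 and Ms4a4b on chromosome 19 from 11443553 to 11467055. No other annotated gene overlapped any of the 9, so their counts do not depend on how reads of overlapping genes were assigned.

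Promoter windows of 300 bases were found for 6 of the 9 genes in RefSeq (GRCm38.p6), and because the genes moved together these were searched on both strands for short core letters of lymphocyte transcription factor motifs. The parts upstream of the outermost annotated start are shown, 5′ to 3′ on the strand of the gene, for the 4 genes with a match, and capitals mark a match that lies in the part shown. Cd3e and Cd3g are chains of the same complex, Nkg7 is a granule gene, and Pdcd1 encodes the target of the antibody.
Cd3e: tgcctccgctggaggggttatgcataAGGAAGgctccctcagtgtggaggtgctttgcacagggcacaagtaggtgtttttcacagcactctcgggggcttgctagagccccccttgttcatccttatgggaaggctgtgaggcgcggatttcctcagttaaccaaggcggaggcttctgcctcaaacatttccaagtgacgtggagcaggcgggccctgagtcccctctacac
Cd3g: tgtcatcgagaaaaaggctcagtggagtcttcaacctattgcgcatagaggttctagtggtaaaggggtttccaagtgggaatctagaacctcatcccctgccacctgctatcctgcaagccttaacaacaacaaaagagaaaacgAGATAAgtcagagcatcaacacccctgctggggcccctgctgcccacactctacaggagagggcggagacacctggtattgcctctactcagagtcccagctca
Nkg7: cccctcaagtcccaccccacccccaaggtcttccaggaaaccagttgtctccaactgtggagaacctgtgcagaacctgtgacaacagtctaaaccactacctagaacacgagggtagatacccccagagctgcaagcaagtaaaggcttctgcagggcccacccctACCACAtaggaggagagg
Pdcd1: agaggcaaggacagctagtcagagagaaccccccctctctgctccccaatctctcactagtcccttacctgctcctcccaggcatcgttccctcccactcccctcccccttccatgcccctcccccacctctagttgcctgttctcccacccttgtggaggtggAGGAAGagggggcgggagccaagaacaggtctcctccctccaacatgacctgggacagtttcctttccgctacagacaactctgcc
The stretches are chr9:45009628-45009861 and chr9:44980432-44980681 on the minus strand, chr7:43436888-43437072 on the plus strand and chr1:94052554-94052803 on the minus strand. AGGAAG, a core of ETS family motifs, was present in 3 of the 6 windows (Cd3e, Nkg7 and Pdcd1) and in 35.4% of 32851 mouse promoter windows of the same length. TGTGGT, a RUNX core whose reverse complement is ACCACA, was present in 1 window, that of Nkg7, and in 16.8% of all windows. The letters AGATAA, the core of motifs of the GATA family, occurred in the Cd3g window and in 11.2% of windows overall. GGTGTG, a T-box core, was present in the Nkg7 window outside the part shown and in 19.0% of all, and GGAAAA, an NFAT core, in none of the 6 and in 23.4% of all. The Cd8a and Ms4a4b windows held none of these letters, and such matches describe letters only.

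All 9 genes were higher in WT anti-PD1 than in WT IgG, with the 3 libraries of one group above the 3 of the other in each case. Across the 14340 genes tested, 18.7% showed such a separation upwards, and since the 9 genes were chosen for this response nothing is read from their count. Summed over the 9 genes, the level went from 2.82 ± 1.4 CPM (SD, n = 3) with IgG to 25.7 ± 9.7 CPM with anti-PD1 in WT tumors. In A159V tumors the sum was 2.58 ± 0.54 CPM with IgG and 2.37 ± 0.787 CPM with anti-PD1. The sum in WT anti-PD1 was 36.8 CPM in replicate 2, against 19.6 CPM and 20.5 CPM in replicates 1 and 3, and replicate 2 was also the library with the lowest total count.

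**Figure D1:**
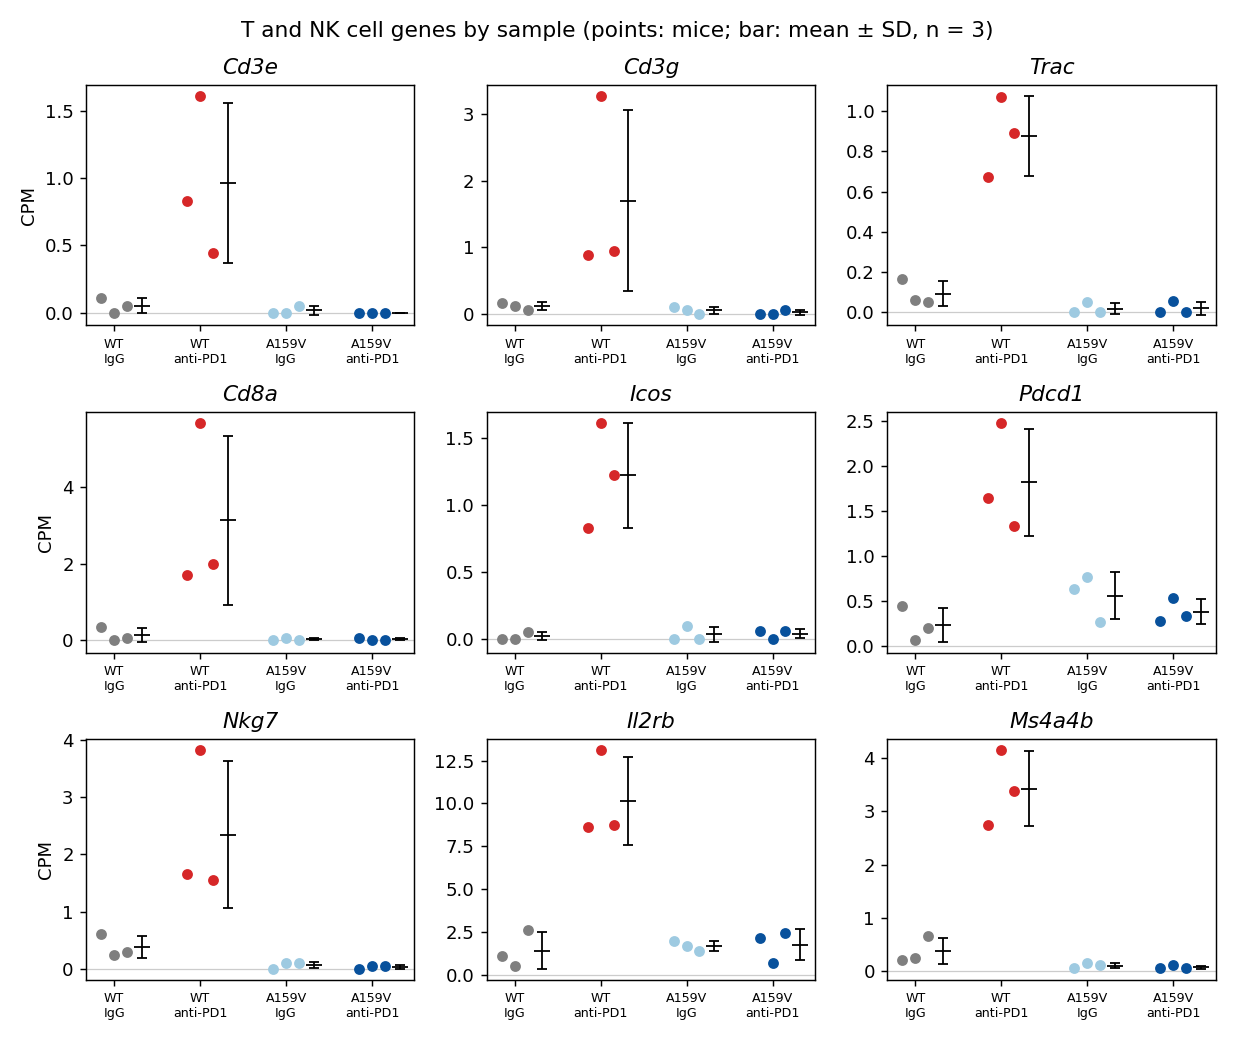
Expression of the 9 genes in CPM (vertical axes, linear, a separate scale per gene) in the 4 groups (horizontal axes); points are libraries and the black bar is the mean ± SD of 3. In every panel the 3 WT anti-PD1 points lie above the 9 others, and for 7 genes the A159V points sit near 0.

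Of the 9 genes, 3 encode chains of the T cell receptor complex (Cd3e, Cd3g and Trac), and outside WT anti-PD1 none of them had more than 3 counts in a library. Cd3e, a signaling chain, had 2, 0 and 1 counts in WT IgG replicates 1, 2 and 4 and 16, 24 and 8 counts in WT anti-PD1 replicates 1, 2 and 3. In A159V it had 0, 0 and 1 counts with IgG and 0 counts in each library with anti-PD1. It was the 1 gene of the 9 that did not pass the filter on low counts and so was not fitted.

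Cd3g, the neighboring chain, had 3, 2 and 1 counts in WT IgG and 17, 49 and 17 counts in WT anti-PD1. Its A159V counts were 2, 1 and 0 with IgG and 0, 0 and 1 with anti-PD1. Replicate 2 of WT anti-PD1 stood well above the other libraries of its group for this gene. Trac, the constant part of the receptor alpha chain, was more even, with 13, 16 and 16 counts in WT anti-PD1, 3, 1 and 1 in WT IgG, and no more than 1 count in any A159V library. For both genes WT anti-PD1 did not overlap with the other groups.

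Cd8a, the alpha chain of the CD8 coreceptor, had 33, 85 and 36 counts in WT anti-PD1, where its level was 3.13 ± 2.22 CPM (SD, n = 3). In WT IgG it had 6, 0 and 1 counts, so replicate 1 supplied most of the counts of that group. In A159V tumors 1 library of each treatment held 1 count and the others none. Cd4, the coreceptor of helper T cells, had 0, 1 and 1 counts in WT anti-PD1, so that Cd8a made up 154 of the 156 counts of both coreceptor genes there, or 98.7% (95% exact binomial interval 95.4 to 99.8%). The 2 genes differ in length and the share compares counts, not cells.

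Among the receptors that tune T cell activation, Icos, a costimulator of activated T cells, had 0, 0 and 1 counts in WT IgG and 16, 24 and 22 in WT anti-PD1. In A159V tumors it had 0, 2 and 0 counts with IgG and 1, 0 and 1 with anti-PD1. Pdcd1 had 8, 1 and 4 counts in WT IgG and 32, 37 and 24 in WT anti-PD1. Its A159V counts were 12, 16 and 5 with IgG and 5, 10 and 6 with anti-PD1. Unlike Icos, Pdcd1 was thus above 3 counts in all 6 A159V libraries.

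Nkg7, a granule protein gene of cytotoxic T cells and NK cells, had 11, 4 and 6 counts in WT IgG and 32, 57 and 28 in WT anti-PD1, and at most 2 counts in any A159V library. Ms4a4b, a membrane protein gene of T cells, had 4, 4 and 13 counts in WT IgG, 53, 62 and 61 in WT anti-PD1, and at most 3 in any A159V library. Both genes were therefore above the detection limit in WT IgG but not in A159V.

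Il2rb encodes the beta chain shared by the receptors for IL-2 and IL-15, and it had the most counts of the 9 genes. It had 21, 9 and 52 counts in WT IgG, with replicate 4 the highest, and 167, 196 and 157 in WT anti-PD1. The A159V counts were 38, 36 and 27 with IgG and 40, 14 and 44 with anti-PD1. Its A159V levels, 1.72 ± 0.287 CPM with IgG and 1.79 ± 0.915 CPM with anti-PD1, fell inside the range of WT IgG (0.55 to 2.61 CPM).

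Divided by exon length, levels in WT anti-PD1 were highest for Nkg7 at 2.56 ± 1.4 CPM per kb (SD, n = 3) and Il2rb at 2.37 ± 0.598. Pdcd1 at 0.944 ± 0.306, Trac at 0.939 ± 0.214 and Cd8a at 0.862 ± 0.611 CPM per kb came next. Cd3g at 0.521 ± 0.419, Ms4a4b at 0.391 ± 0.0805, Icos at 0.356 ± 0.114 and Cd3e at 0.235 ± 0.145 CPM per kb followed. Neighbors in this order lay within 1 SD of each other, with the exception of Il2rb and Pdcd1. In A159V anti-PD1 the order began with Il2rb at 0.417 ± 0.214 and Pdcd1 at 0.196 ± 0.0701 CPM per kb, and Nkg7 followed at 0.0397 ± 0.0344.

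The size of the WT difference was taken as a ratio of pooled counts per effective library size, with an exact 95% interval for counting error. WT anti-PD1 exceeded WT IgG 5.82-fold for Nkg7 (3.64 to 9.76), 6.63-fold for Il2rb (5.24 to 8.47), 7.48-fold for Pdcd1 (4.17 to 14.6) and 8.76-fold for Ms4a4b (5.56 to 14.5). The ratio was 9.41 for Trac (3.75 to 30.4), 14.5 for Cd3g (6.37 to 40.5) and 23.0 for Cd8a (10.9 to 58.2). For Cd3e, with 3 counts in WT IgG, it was 16.7 (5.39 to 84.0), and for Icos, with 1 count, 64.8 (11.2 to 2600). The genes with more counts in WT IgG thus gave the narrower intervals and, in this set, the smaller ratios. The median of the 9 ratios was 9.41, and it was 15.6 without WT IgG replicate 1. That library held 6 of the 7 Cd8a counts of its group, and without it the ratio was 107 for Cd8a, 33.4 for Cd3e, 15.6 for Trac and 12.9 for Pdcd1. Without WT IgG replicate 4 it was 11.5 for Il2rb and 14.6 for Ms4a4b, and Icos, then with no count in WT IgG, was at least 13.7-fold higher. Without WT anti-PD1 replicate 2 it was 8.29 for Cd3g and 14.4 for Cd8a. Every ratio stayed above 1, and the lowest was 4.18 for Nkg7 without WT anti-PD1 replicate 2. In the edgeR fit, the log2 fold change of the 8 genes fitted ran from 2.58 for Nkg7 (standard error 0.53) to 5.6 for Icos (standard error 0.84), with a median of 3.15. The genes were chosen for this response, so these sizes are a description and are not set against all genes.

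In A159V tumors anti-PD1 did not raise or lower any of the 8 genes fitted past the threshold (adjusted p under 0.05 and absolute log2 fold change above 0.3). Of the 14340 genes tested, 0% were called. Among the 8, only Il2rb and Pdcd1 would have passed the filter on low counts without the WT anti-PD1 libraries. The others entered the fit through the group in which they were high, so little can be read from their lack of a call. Without adjustment, 521 genes had p under 0.05, none of them among the 8, and DESeq2 called 2 genes of all and none of the 8. The A159V anti-PD1 and A159V IgG libraries overlapped for all 9 genes, whereas 4.5% of all genes separated upwards and 6.51% downwards. In every A159V library, 7 of the 9 had at most 3 counts, so a fall was not detectable at this depth for Cd3e, Cd3g, Trac, Cd8a, Icos, Nkg7 and Ms4a4b. A rise was limited by counting error: the interval of the A159V ratio of anti-PD1 over IgG ended at 2.98 for Ms4a4b, 3.7 for Nkg7, 4.41 for Cd3g and 14.6 for Icos. It ended at 41.4 for Cd3e and 83.3 for Cd8a and Trac, which had at most 2 counts over all A159V libraries.

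The other 2, Il2rb and Pdcd1, had enough counts for a comparison. The log2 fold change of Il2rb was 0.05 (standard error 0.49, adjusted p = 1, edgeR), and the pooled ratio was 1.03 (0.772 to 1.37). Its estimate ran from −0.24 to 0.42 when single libraries were left out, so it had no stable direction. For Pdcd1 the log2 fold change was −0.55 (standard error 0.55, adjusted p = 1), and the pooled ratio was 0.676 (0.371 to 1.2). These intervals do not include the variation between mice. The difference between the genotypes in response was not tested for the 9 genes, because the WT response had chosen them.

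With anti-PD1 given to both genotypes, all 9 genes were higher in WT than in A159V without overlap, and 23.5% of all genes showed a separation in that direction. The WT anti-PD1 libraries are those of the previous comparison, so this is the same set of high values against another reference. WT exceeded A159V 4.68-fold for Pdcd1 (2.89 to 7.91) and 5.6-fold for Il2rb (4.51 to 7.03). For the others the ratios were larger and rested on 1 to 4 counts in A159V anti-PD1, from 32.7 for Icos (8.69 to 276) to 163 for Cd8a (28.8 to 6460). Cd3e, with no count in A159V anti-PD1, was at least 16.9-fold higher in WT, taking 3 counts over the group as the limit. With single libraries left out, Cd8a ran from a bound of at least 36.2-fold, without A159V anti-PD1 replicate 1, to 203, and Cd3g from at least 19.7-fold, without A159V anti-PD1 replicate 3, to 111. Without A159V anti-PD1 replicate 2, Trac was at least 10.4-fold higher, Icos had a ratio of 21.6 and the bound of Cd3e was 11.1. The ratio of Pdcd1 ran from 3.94 to 5.88 and that of Il2rb from 4.31 to 6.85. The median of the 9, with Cd3e at its bound, was 46.5, and it was 21.6 without A159V anti-PD1 replicate 2.

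**Figure D2:**
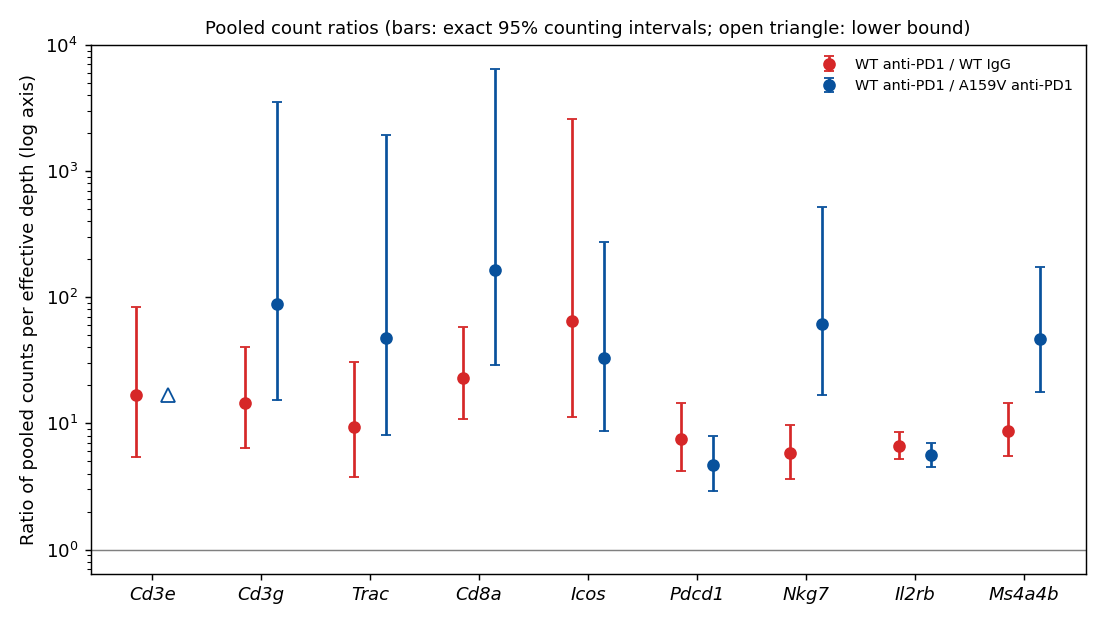
Ratio of pooled counts per effective library size for each gene (vertical, log axis) in WT anti-PD1 over WT IgG (red) and over A159V anti-PD1 (blue); bars are exact 95% intervals for counting error and the open triangle is a lower bound. Il2rb and Pdcd1 have blue ratios of 5.6 and 4.68, below those of the 7 other genes.

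Under IgG the genotypes differed less. Nkg7 was 5.63-fold higher in WT IgG than in A159V IgG (1.9 to 22.6) and Ms4a4b 3.75-fold higher (1.47 to 11.4), both without overlap between the libraries. Trac also showed no overlap, but all 6 libraries had at most 3 counts. Thus 3 of 9 genes were lower in A159V without overlap and none higher, against 16% and 19.8% of all genes tested. Il2rb had a ratio of 0.871 (0.643 to 1.18). Pdcd1 went the other way, with a ratio of 0.423 (0.204 to 0.824) and libraries that overlapped.

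The make-up of the summed counts differed between the groups as well. Il2rb and Pdcd1 together held 613 of the 1298 counts of the 9 genes in WT anti-PD1, or 47.2% (exact binomial interval 44.5 to 50%), and 59.7% in WT IgG (51.7 to 67.4%). They held 134 of 152 in A159V IgG, or 88.2% (81.9 to 92.8%), and 119 of 130 in A159V anti-PD1, or 91.5% (85.4 to 95.7%). By library the share was 42.4% to 52.5% with anti-PD1 and 47.6% to 70.0% with IgG in WT, and 83.9% to 94.3% over the 6 A159V libraries. The A159V libraries therefore did not overlap with the WT libraries, a separation given without a test. The total of the 9 genes in A159V was close to that in WT IgG, but it came mainly from Il2rb and Pdcd1, while the CD3 chains, Trac and Cd8a were near 0.

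**Figure D3:**
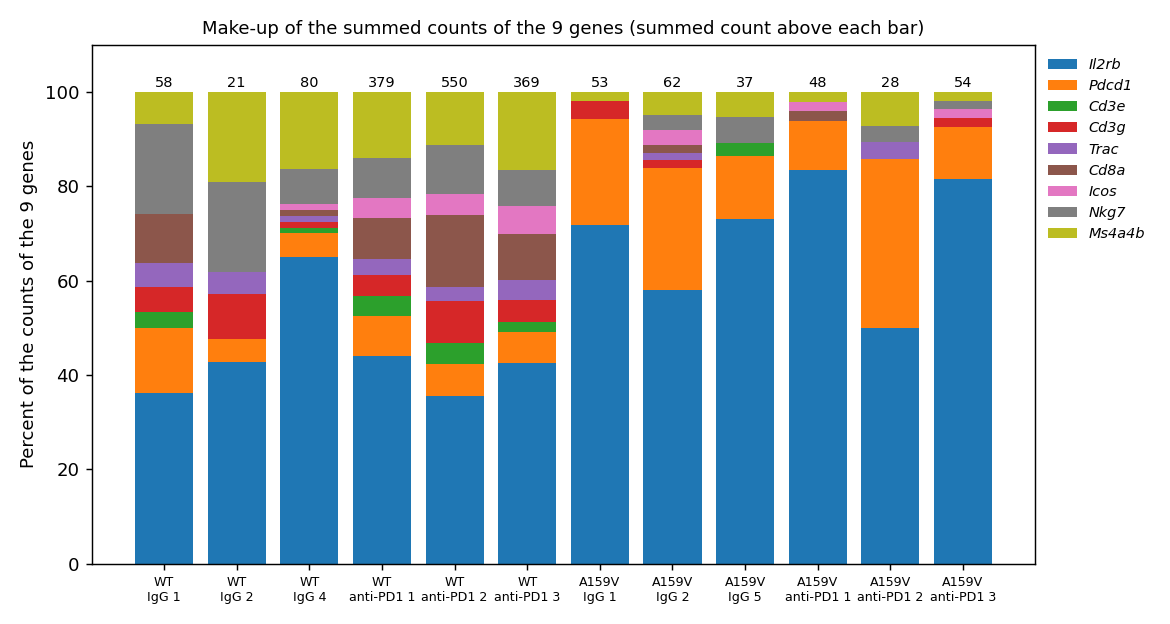
Percent of the summed counts of the 9 genes that each gene supplied (vertical axis) in each of the 12 libraries (horizontal axis), with the summed count above the bar. Il2rb and Pdcd1, the lowest segments, take 83.9% to 94.3% of each A159V library and 42.4% to 70.0% of each WT library.

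A list of other T and NK cell genes, 98 of them in the table, was read beside the 9 genes. It was drawn up with earlier results of these data known, so it is not an independent check on the 9. It spans receptor chains, coreceptors, signaling molecules, checkpoint receptors, granule proteins, NK receptors, cytokine receptors, transcription factors and the GIMAP and MS4A families. Of the 98, 57 passed the filter on low counts, and 28 of these would have passed without the WT anti-PD1 libraries. In WT tumors, 30 of the 98 genes had at most 3 counts in every IgG library and 6 in every anti-PD1 library. In A159V tumors these numbers were 46 and 50.

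In WT tumors 4 of the 57 rose with anti-PD1 and none fell, against 0.495% of all genes that rose and 0.132% that fell (0.628% together). All 4 passed the filter on low counts only through the WT anti-PD1 libraries, the group in which they were high, and none of the 28 genes that pass without those libraries was called, so the share of 4 in 57 is not set against the share of all genes. Sh2d2a, an adaptor of T cell signaling, had 8, 3 and 18 counts in WT IgG and 61, 49 and 48 in WT anti-PD1 (log2 fold change 2.53, standard error 0.43, adjusted p = 0.0301, edgeR). Gimap3, a GTPase gene of lymphocytes, had 53 counts in WT anti-PD1 and 3 in WT IgG, a ratio of 18.5 (5.99 to 92.4, adjusted p = 0.0369). Ms4a6b, a relative of Ms4a4b, rose by 2.57 on the log2 scale (standard error 0.49, adjusted p = 0.0492). The WT anti-PD1 libraries of these 3 genes lay above the WT IgG libraries.

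Most other genes of the list leaned the same way without passing the test. Of the 57, 50 had a log2 fold change above 0, with a median of 1.57 against 0.01 over all genes, and 34 separated upwards without overlap, against 18.7% of all genes. High values in WT anti-PD1 are what admitted 29 of the 57 to the fit, so these numbers do not describe the list as a whole: among the other 28, 7 separated upwards and the median was 0.265. Gzmb, a granzyme, had 28, 2 and 76 counts in WT IgG and 203, 242 and 194 in WT anti-PD1, and Prf1, which encodes perforin, had 4, 1 and 32 against 80, 82 and 62. The log2 estimate was 2.9 for Trbc2 (standard error 0.55, adjusted p = 0.0569), 3.04 for Klrc1, an NK receptor (standard error 0.72, adjusted p = 0.0591), and 1.77 for Lck, a T cell kinase (standard error 0.43, adjusted p = 0.0622). Gimap4 (2.46), Gimap6 (1.57) and Klrk1 (2.21) were also on the positive side, with adjusted p between 0.0587 and 0.0713.

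The count of 4 rested on single libraries, and so did the 90 calls over all genes. The list count was 32 without WT IgG replicate 4 and 20 without A159V IgG replicate 5, with 3458 and 601 calls over all genes. It was 0 without WT IgG replicate 1, WT anti-PD1 replicate 1 or WT anti-PD1 replicate 2, with 1, 2 and 2 calls over all genes. In WT IgG replicate 4, Gzma, Gzmb, Gzmc and Prf1 had their highest WT IgG counts, and their part in the shift was not tested.

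The list also held genes with counts in every group. Cd3d, the CD3 chain gene between Cd3g and Cd3e, had 9, 15 and 13 counts in WT IgG and 17, 28 and 22 in WT anti-PD1. In A159V it had 7, 10 and 3 counts with IgG and 7, 11 and 5 with anti-PD1. Its WT groups overlapped, with a ratio of 1.89 (1.25 to 2.91), and it was lower in A159V than in WT under anti-PD1 (log2 fold change −1.64, standard error 0.45, adjusted p = 0.0218). Lck and Gimap6 separated upwards in WT, with ratios of 3.37 (2.23 to 5.22) and 2.93 (1.91 to 4.6). Il18rap, a chain of the IL-18 receptor, was the highest, at 45.5 ± 4.63 CPM (SD, n = 3) with IgG and 54.6 ± 6.89 CPM with anti-PD1 in WT tumors. In A159V tumors it was at 61.3 ± 8.84 and 73.0 ± 13.3 CPM. Il2rg, the common gamma chain of cytokine receptors, ranged between group means of 16.8 and 20.1 CPM. Eomes, a transcription factor of effector lymphocytes, ranged between 15.2 and 22.7 CPM, and Crtam between 1.22 and 1.65 CPM. Ccl5, a chemokine, was 51.2 ± 35.6 CPM in WT IgG and 32.1 ± 1.76 CPM in WT anti-PD1, with WT IgG replicate 1 highest at 1691 counts. In the WT response the log2 fold change was 0.26 for Il18rap, −0.16 for Il2rg, −0.12 for Eomes and −0.67 for Ccl5, with none passing the test.

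In A159V tumors none of the 57 genes was called with anti-PD1. The median log2 fold change was 0.1 against 0 over all genes, and 2 of the 57 had an unadjusted p under 0.05, Gata3 and Ms4a6b. Sh2d2a had 6, 3 and 5 counts with IgG and 7, 4 and 7 with anti-PD1. Gzmb had 0, 0 and 5 counts against 2, 1 and 10, with overlapping groups.

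An interaction term compared the A159V with the WT response, and none of the 57 genes was called by it, against 0.00697% of all genes. Of the 57, 8 had an unadjusted p under 0.05, as did 2517 of the 14340 genes tested, and DESeq2 called 2 of the list and 294 genes of all. The median difference was −0.84 over the 57 and −0.11 over the 28 genes that pass the filter without WT anti-PD1.

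Between the genotypes under anti-PD1, 38 of the 57 were lower in A159V and 3 were higher. Over all genes the shares were 10.2% and 11.2%. Only 28 of the 57 pass the filter without WT anti-PD1, 1 side of this comparison, so the counts of the 57 are not set against these shares. Trbc2 had 78 counts in WT anti-PD1 and none in A159V anti-PD1, at least 27.5-fold higher in WT, and Trbc1 had 58 against none, at least 20.4-fold higher. Trbc1 and Trbc2 are nearly identical, and the Ms4a and granzyme genes, Ms4a4b included, have close paralogs, so how reads were split within these families is uncertain. Gzmb fell by 5.68 on the log2 scale (standard error 0.92, adjusted p = 0.0011) and Prf1 by 5.02 (standard error 0.87, adjusted p = 0.00174). Klrk1, the NK receptor also known as NKG2D, had 91 counts against 1 and Klrd1 58 against 1. All 8 granule and effector genes fitted and all 5 of the GIMAP and MS4A group were lower in A159V, as were all 3 receptor chains, all 3 NK receptors and 6 of the 7 signaling genes. Those WT values are partly what let these genes pass the filter: of the 28 genes that pass without WT anti-PD1, 10 were lower and 3 higher. The 3 higher genes were the transcription factors Tcf7 (log2 fold change 0.79, standard error 0.14, adjusted p = 0.00235), Lef1 (0.87, standard error 0.21, adjusted p = 0.0127) and Eomes (0.52, standard error 0.15, adjusted p = 0.0312).

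**Figure D4:**
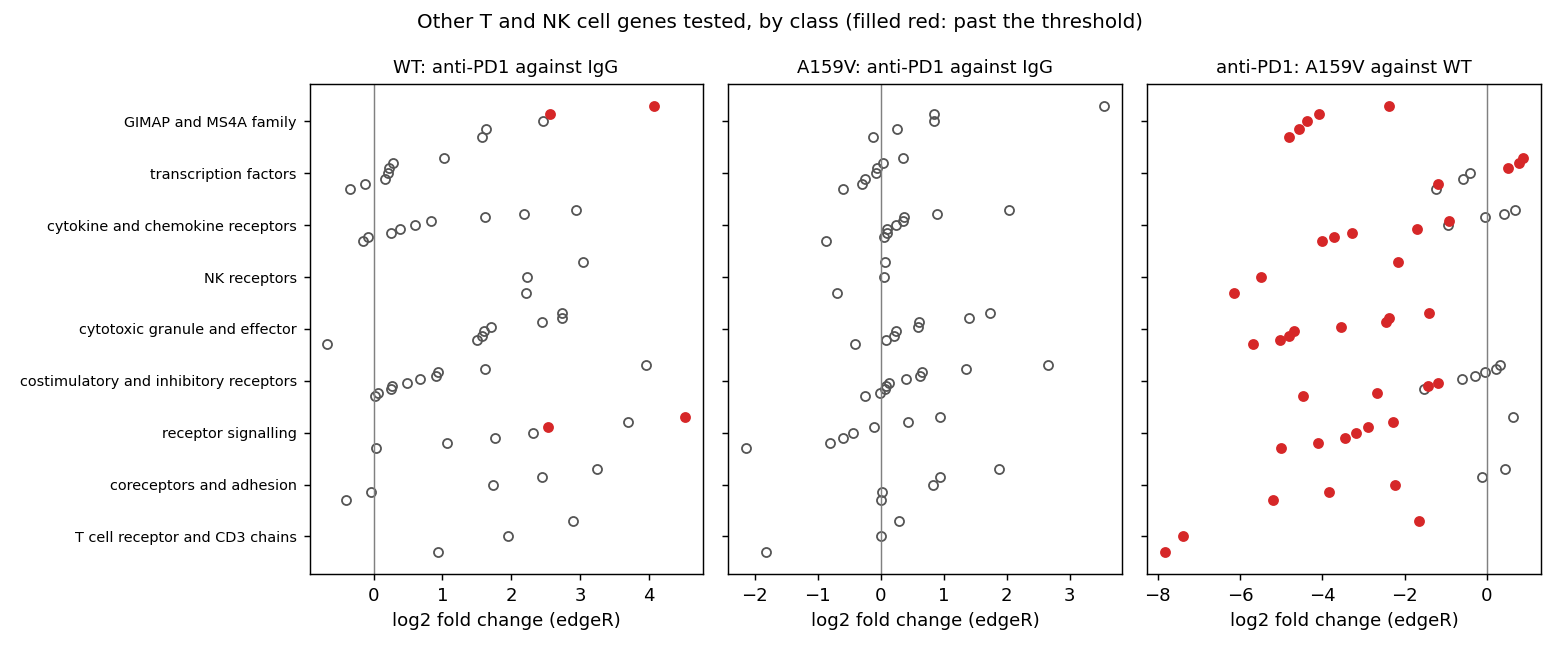
Log2 fold change (horizontal axes, edgeR) of the 57 other T and NK cell genes tested, by class (vertical axis), for anti-PD1 against IgG in WT (left) and A159V (middle) and for A159V against WT under anti-PD1 (right); filled red points passed the threshold and open points did not. Red points number 4 on the left, none in the middle and 41 on the right, and the 3 panels have different horizontal scales.

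Under IgG, 13 of the 57 were lower in A159V and 4 higher, against 12.4% and 15.6% of all genes. In either direction, 29.8% of the 57 and 28% of all genes were called. Of the 28 genes that pass the filter without WT anti-PD1, 6 were lower and 4 higher. Among the 13 lower genes, Gzma had 38 counts in WT IgG and 1 in A159V IgG (adjusted p = 0.00593, edgeR), and Klrk1 had 21 against 1 (adjusted p = 0.0151). Gzmb fell by 4.33 on the log2 scale (standard error 1.13, adjusted p = 0.0143) and Lag3, a checkpoint receptor, by 2.07 (standard error 0.41, adjusted p = 0.00349). The higher ones were Tcf7 (1.33, standard error 0.15, adjusted p = 0.000102), Tnfrsf9, a costimulatory receptor (1.07, standard error 0.21, adjusted p = 0.00321), Havcr2, a checkpoint receptor (0.92, standard error 0.3, adjusted p = 0.0391), and Eomes (0.46, standard error 0.15, adjusted p = 0.0424). The 4 higher genes had at least 69 counts in each library.

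Markers of other cells were read beside these values. Ptprc, which encodes the leukocyte antigen CD45, had 17, 3 and 56 counts in WT IgG, 174, 212 and 134 in WT anti-PD1, and at most 5 in any A159V library. Of 10 pan-leukocyte genes, 2 rose in WT with anti-PD1 (Cd52 and Cd53), against 0.495% of all genes. In A159V against WT under anti-PD1, 8 of the 10 were lower and 1 higher (Arhgdib), against 10.2% and 11.2% of all genes. Which of the marker genes passed the filter on low counts only through WT anti-PD1 was not examined, so nothing is read from these counts. Itgam was the 1 of 7 myeloid genes fitted that rose in WT with anti-PD1 (log2 fold change 2.44, standard error 0.49, adjusted p = 0.0439). None of the B cell, dendritic, neutrophil, endothelial, fibroblast, erythroid or epithelial genes fitted passed the test in that comparison. The part of the other cell types in the values of the 9 genes was not tested.

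By group mean, the summed level of the pan-leukocyte list was 24.2 CPM in WT IgG and 55.5 CPM in WT anti-PD1, but 45.8 and 54.6 CPM in the A159V groups, where Arhgdib made up 31.4 and 41.6 CPM. Over libraries this sum was 17.5 to 28.7 CPM with IgG and 49.7 to 66.4 CPM with anti-PD1 in WT, and 36.8 to 56.0 and 53.0 to 57.2 CPM in A159V. The summed myeloid list ranged from 40.0 to 49.8, 48.2 to 62.5, 53.3 to 74.5 and 54.6 to 60.9 CPM in the same order. The summed fibroblast list ranged from 473 to 790, 665 to 1430, 195 to 256 and 181 to 243 CPM. The fibroblast sums were thus lower in the A159V libraries. Of 6 fibroblast genes, 5 were called lower in A159V under IgG and 3 under anti-PD1, against 12.4% and 10.2% of all genes.

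Some defining markers were sparse, but other genes of the same lists were not. Ms4a1, a B cell marker, and Ly6g, a neutrophil marker, had no count in any library, Adgre1, a macrophage marker, had at most 2 and Cd4 at most 4. In the B cell list, Cd22, Cd79a and Pax5 had means of 5.83, 5.35 and 4.94 CPM over the 12 libraries. In the myeloid list, Cd68, Cd14 and Lyz2 had means of 33.8, 13.7 and 5.3 CPM. Epcam, an epithelial marker, had at most 2 counts in any library of these purified tumor cells. Ncr1 and Klrb1c, markers of NK cells, had 12, 7 and 6 and 10, 11 and 8 counts in WT anti-PD1, and at most 1 count in any A159V library. Summed over WT IgG, Ncr1 had 12 counts and Klrb1c 8, and the WT groups overlapped for Ncr1 but not for Klrb1c. Foxp3, a regulatory T cell factor, had 11, 9 and 16 counts in WT IgG and 8, 10 and 20 in WT anti-PD1, with overlapping groups.

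**Figure D5:**
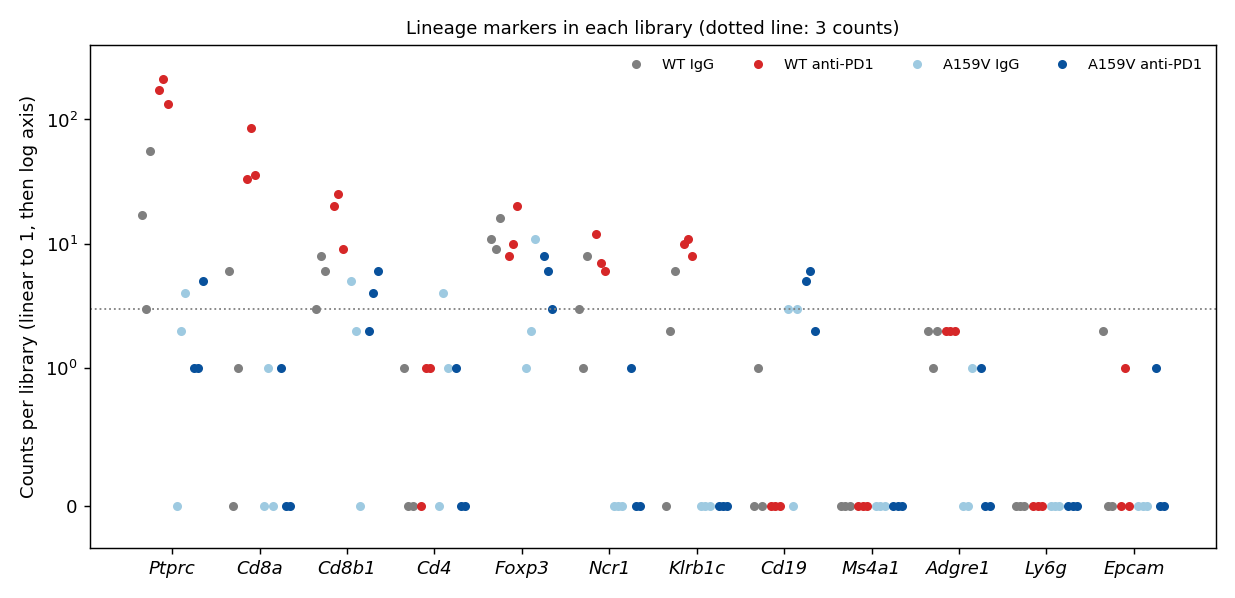
Counts of lineage markers in each library (vertical axis, linear to 1 and logarithmic above) by gene (horizontal axis), with the 4 groups in color and a dotted line at 3 counts. Ptprc, Cd8a and Klrb1c are highest in the 3 WT anti-PD1 libraries, while Ms4a1 and Ly6g are at 0 in all 12.

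Over the 12 libraries, pairs of the 9 genes correlated with Pearson's r between 0.665 and 0.973, with a median of 0.919 over 36 pairs. Among 12643 other genes with a mean of at least 1 CPM, the 15 most like the mean standardized profile of the 9 had r between 0.906 and 0.938. Of the 15, 6 were on the T and NK cell or pan-leukocyte lists: Sh2d2a (0.938), Laptm5 (0.932), Coro1a (0.916), Ptprc (0.913), Prf1 (0.912) and Dock2 (0.906). Selplg (0.918), Sema4d, Anxa6, Itpkc, Arsg, Fgl2, Srxn1, Simc1 and 1 feature without a matched symbol were on none of the lists read here. Srxn1 and Simc1 stood out by level, at 104 ± 5.06 and 77.7 ± 5.57 CPM (SD, n = 3) in WT anti-PD1 and 79.3 ± 4.61 and 48.9 ± 7.71 CPM in WT IgG. These correlations rest on the same 3 high libraries and are given as a description.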

How the data were processed

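RNA of purified MC38 tumor cells was sequenced for 12 samples in 4 groups, taken from the sample labels. Per the methods, the authors aligned paired reads to mm10 with STAR and counted them with summarizeOverlaps, and they deposited raw counts per gene without normalization. The counting mode, strand setting and tool versions are not given in the sources used here.

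Of the 33219 features, 31980 matched a symbol in GENCODE M21. The 9 genes and all gene lists were chosen with earlier results of these data known. The rule for naming took the 9 genes, the 15 genes most like them and called list genes by smallest p. It also took the 2 genes of highest mean CPM in each class. From other marker lists it took the 3 of highest mean CPM and those at most at 3 counts. Of the called genes, classes and marker lists, only some of the selected genes are named. Other genes were named after their values were seen. A gene that this rule selects is not reported here.

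Counts were filtered with filterByExpr (minimum count 10), scaled by TMM and fitted with edgeR 4.0.16 (quasi-likelihood, R 4.3.3) in 1 model of 12 samples, with 8 residual degrees of freedom, and with Benjamini-Hochberg adjustment over 14340 genes. Genes were called at an adjusted p under 0.05 when their log2 fold change exceeded 0.3 in size. CPM values are TMM-scaled, and correlations used log2 CPM with a prior count of 2. Intervals are exact and cover counting error only. P-values measure the spread between samples of the same group, taken over all 4 groups in the shared model. Alternatives used RLE and upper-quartile scaling, no filter, DESeq2 1.42.0, limma voom 3.58.1, only the groups compared, the replicate number as a block and each sample left out. No pair of samples of 1 group agreed within sampling noise.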

Additional observations from a re-analysis of the deposited data

How the results depend on the processing

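In A159V tumors no gene of the 9 or of the other T and NK cell list was called with anti-PD1 under any alternative that tested it. Not all were tested in each: 2 of the 9 and 24 of the list with only the groups compared, 9 and 98 with no filter. The median log2 fold change of the 8 genes in WT tumors, 3.15, lay between 2.95 and 3.74 with single libraries left out and was 3.55 with the replicate block. The other counts of the 57 genes moved. The WT count of 4, with 90 calls over all genes, was 25 with no filter (771 over all genes) and 18 with DESeq2 (1441). It was 12 with limma voom (188), 0 with only the groups compared (0) and 31 with the replicate block (4650). Replicate numbers 4 and 5 each occur in only 1 library, so the block fits WT IgG replicate 4 and A159V IgG replicate 5 exactly. These libraries then carry no weight in the group contrasts, so the block is not independent of leaving them out. With single libraries left out the WT count was 0 to 32. The 32 came without WT IgG replicate 4 (3458 over all genes), and it was 20 without A159V IgG replicate 5 (601). The IgG genotype count of 17 (4010 over all genes) was 7 with only the groups compared (1399). It was 11 to 22 with single libraries left out, 11 without A159V IgG replicate 2 (2578 over all genes). The anti-PD1 genotype count of 41 (3075 over all genes) was 64 with no filter (2896) and 32 to 54 with single libraries left out. The interaction count of 0 was 1 with no filter (37 over all genes), 2 with DESeq2 (294) and 6 with the replicate block (2760). It was 0 to 5 with single libraries left out, 5 without WT IgG replicate 4 (1182 over all genes). Restricting the list to the 28 genes that pass the filter without WT anti-PD1, a choice made after seeing the data, gave 0, 10 and 13 calls for the WT, IgG genotype and anti-PD1 genotype counts. The cause of these shifts was not tested. The number of list genes tested also differed between the alternatives. In the WT contrast it was 98 with no filter, 54 with only the groups compared and 60 to 72 with single libraries left out. The restriction to the 28 genes kept the same fit. Of the single genes, the A159V estimate of Il2rb, 0.05, turned to −0.11 with limma voom, −0.14 with the replicate block, and −0.04, −0.12 and −0.24 without A159V IgG replicate 5, A159V anti-PD1 replicate 1 and A159V anti-PD1 replicate 3, and was 0.42 without A159V anti-PD1 replicate 2. Replicate numbers mark different mice and did not pair the samples: same-numbered samples of different groups correlated in their deviations with r from −0.178 to 0.205, over 0.1 in 3 of 13 pairs. Medians of the 8 genes in the 4 other contrasts were not recomputed, because 7 of the 9 genes are at the detection limit in A159V.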
